A study of Mus musculus with 12 samples.

Results

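The acyl-CoA thioesterase genes of mouse liver were examined as a family of 10 members, Acot1, Acot2, Acot3, Acot4, Acot7, Acot8, Acot9, Acot11, Acot12 and Acot13, chosen by gene symbol from the 24453 genes listed. All 10 were found, and all 10 passed the filter on low values (at least 0.5 FPKM in at least 3 libraries). Acyl-CoA thioesterases cut the thioester bond of a fatty acyl-CoA and release a free fatty acid and coenzyme A, the reverse of what acyl-CoA synthetases do. Each compartment that handles acyl-CoA has thioesterases of its own, which set how much activated fatty acid and free CoA it holds, and in rodent liver several of them are known targets of the fasting-activated receptor PPAR-alpha. The type I enzymes Acot1 to Acot4 are close copies that lie side by side on chromosome 12, and the type II enzymes share a hotdog fold and are scattered over the genome. By the known place of the protein, Acot1, Acot7, Acot11 and Acot12 were grouped as cytosolic, Acot2, Acot9 and Acot13 as mitochondrial, and Acot3, Acot4 and Acot8 as peroxisomal.

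Liver RNA came from C57Bl/6J mice that had eaten a high-fat diet (45% of calories as fat) over 8 weeks, and gave 12 mRNA-seq libraries, each titled as a liver of its own. The iAMPK mice carried ColA-AMPKa1(312) on both alleles, a construct of the catalytic subunit of the energy-sensing kinase AMPK, and R26-rtTA on both alleles, the doxycycline-dependent activator. In L-iAMPK mice Albumin-Cre was added, a recombinase made in hepatocytes. Both genotypes were studied with and without doxycycline, as 4 groups of 3: iAMPK HFD, iAMPK HFD+doxy, L-iAMPK HFD and L-iAMPK HFD+doxy. The labels give AMPK as active in L-iAMPK HFD+doxy and as inactive in the other groups, and give no age or sex. Prkaa1, which encodes the AMPK α1 subunit, was at most 4.12 FPKM in the 9 control livers and at 1265, 947 and 1003 FPKM in the L-iAMPK HFD+doxy livers. Nothing in the labels ties replicates to separate litters or days, so p-values measure the spread between these 12 livers.

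Some members cannot be fully told apart by short reads, and the sequence that limits them most is shown first. The coding sequences of Acot1 and Acot2 were 85.5% identical, and the longest run without a difference was 273 bases, in exon 3 of 3 of either gene. The run lies at chr12:84017006-84017278 in Acot1 and at chr12:83992728-83993000 in Acot2 (GRCm38, the assembly also called mm10, plus strand, GENCODE transcripts). A read that falls wholly inside it fits both genes.
Acot1 and Acot2 shared exon 3 stretch: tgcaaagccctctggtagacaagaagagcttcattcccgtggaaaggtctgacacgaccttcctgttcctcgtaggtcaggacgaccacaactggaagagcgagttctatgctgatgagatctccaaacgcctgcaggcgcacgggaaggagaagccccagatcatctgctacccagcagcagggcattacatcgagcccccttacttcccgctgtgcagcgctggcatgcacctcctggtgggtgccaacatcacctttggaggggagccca

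In all, 59.0% of the 50-base windows of the Acot1 coding sequence also occurred in another gene, mainly Acot2 (527 of 1211 windows). The share was 45.2% for Acot2, 52.8% for Acot3, 20.5% for Acot4 and 24.9% for Acot9, whose copy is Acot10 (97.2% identical). It was 0% for Acot7, Acot8, Acot11, Acot12 and Acot13. The sources used here do not say how reads that fit several genes were counted, so the levels of Acot1 to Acot4 and of Acot9 are less certain than those of the other members.

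The type I neighbours differ in their start regions. The promoters of the 4 genes, from 250 bases before to 50 bases after the start site (RefSeq, GRCm38.p6), are shown because these genes gave the widest range of patterns in the family. Capitals mark the closest match to the DR1 element AGGTCANAGGTCA, the repeat that PPAR-alpha is known to bind together with its partner RXR. It was searched on both strands with up to 2 mismatches over the 12 defined bases.
Acot1 promoter, chr12:84009252-84009551, plus strand: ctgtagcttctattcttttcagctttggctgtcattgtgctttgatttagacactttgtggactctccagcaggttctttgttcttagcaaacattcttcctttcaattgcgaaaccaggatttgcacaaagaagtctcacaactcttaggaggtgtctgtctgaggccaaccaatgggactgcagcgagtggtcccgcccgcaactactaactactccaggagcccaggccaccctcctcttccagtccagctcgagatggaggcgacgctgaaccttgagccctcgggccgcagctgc
Acot2 promoter, chr12:83987611-83987910, plus strand: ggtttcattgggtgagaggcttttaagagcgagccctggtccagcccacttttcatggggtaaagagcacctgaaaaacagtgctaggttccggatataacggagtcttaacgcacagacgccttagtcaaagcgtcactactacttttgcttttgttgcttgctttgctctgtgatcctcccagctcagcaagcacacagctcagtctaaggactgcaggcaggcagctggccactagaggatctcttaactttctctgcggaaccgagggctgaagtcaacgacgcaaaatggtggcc
Acot3 promoter, chr12:84051894-84052193, plus strand: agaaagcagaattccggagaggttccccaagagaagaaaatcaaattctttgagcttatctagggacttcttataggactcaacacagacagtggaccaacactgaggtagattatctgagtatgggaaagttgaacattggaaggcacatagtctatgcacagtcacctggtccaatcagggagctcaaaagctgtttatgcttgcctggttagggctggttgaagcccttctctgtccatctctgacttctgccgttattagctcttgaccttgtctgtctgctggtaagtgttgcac
Acot4 promoter, chr12:84038129-84038428, plus strand: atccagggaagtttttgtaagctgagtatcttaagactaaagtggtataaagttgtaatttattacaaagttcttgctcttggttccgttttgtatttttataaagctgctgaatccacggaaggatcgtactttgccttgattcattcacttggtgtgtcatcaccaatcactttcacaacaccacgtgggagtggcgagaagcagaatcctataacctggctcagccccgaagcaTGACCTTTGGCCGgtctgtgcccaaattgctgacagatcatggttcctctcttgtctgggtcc

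The Acot4 window held a match on the minus strand with 2 mismatches, beginning 13 bases before the start site, and the windows of Acot1, Acot2 and Acot3 held none. Of the 9 members with a promoter in the RefSeq table (all but Acot13), Acot12 was the other with a match, with 1 mismatch. Of all 32851 promoter windows of this length, 3.86% held such a match, and 0.554% held one with at most 1 mismatch. A match is a likeness of letters only, and the absence of one says nothing of sites outside these 300 bases.

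The members spanned a wide range of levels. FPKM corrects for transcript length, so that genes can be ranked. Over all 12 livers Acot13, a mitochondria-associated enzyme that works with the lipid-binding protein Pctp, was highest at a mean of 71.4 FPKM, and Acot12, the cytosolic acetyl-CoA hydrolase of liver, followed at 55.0 FPKM. Acot3 and Acot4 came next at 26.8 and 24.9 FPKM, and their ranges overlapped widely. Acot1 (15.3 FPKM), Acot8 (12.4 FPKM) and Acot7 (11.4 FPKM) overlapped as well, as did Acot11 (5.83 FPKM) with Acot2 (5.75 FPKM). Acot9 was lowest at 2.403 FPKM. Variation between livers did not follow the level. The coefficient of variation over the 12 livers was 73.0% for Acot3, which differed 15.4-fold between its highest and lowest liver, and 60.2% for Acot1, against 7.99% for Acot12.

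**Figure D1:**
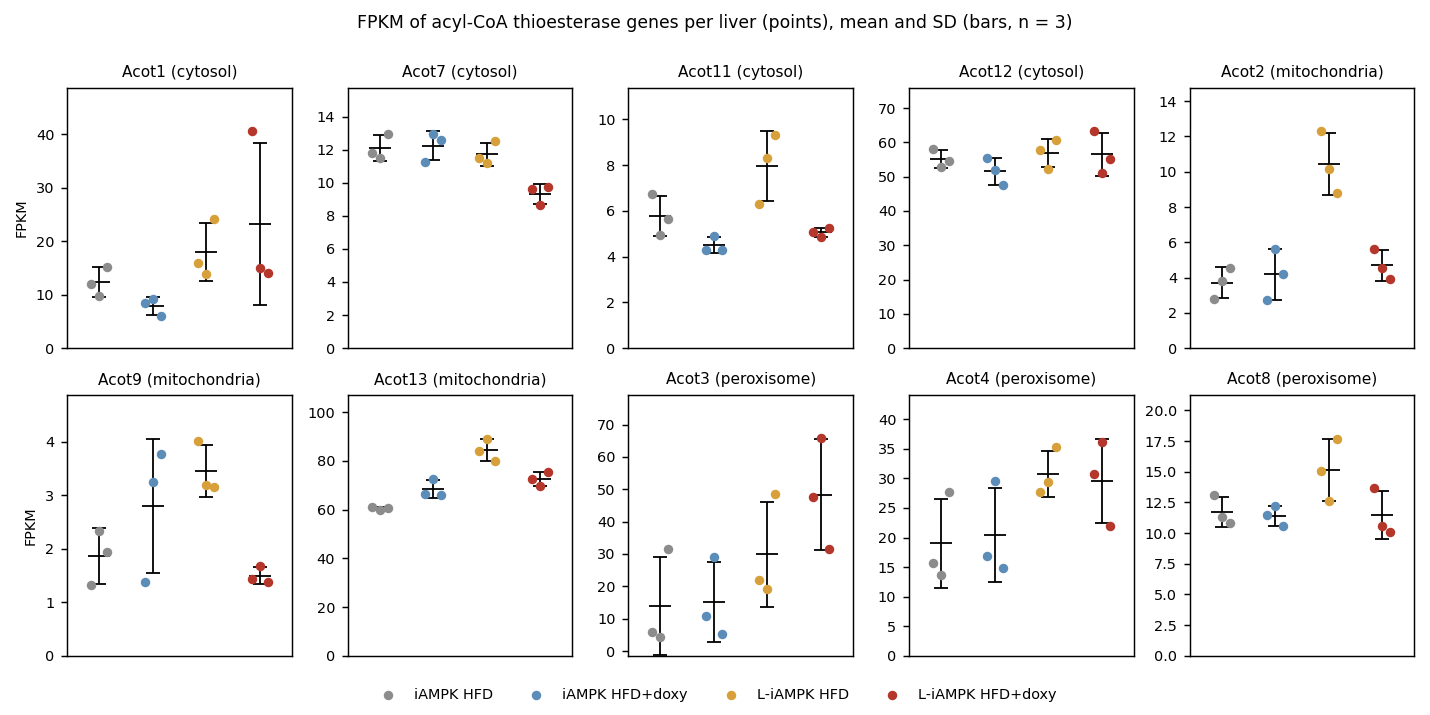
Level of each acyl-CoA thioesterase gene in FPKM (vertical axis, linear) in the 4 groups; points are livers, and the horizontal mark and bars are the mean and SD (n = 3). Acot2, Acot9 and Acot13 have their highest group mean in L-iAMPK HFD, Acot7 its lowest in L-iAMPK HFD+doxy, and Acot1 and Acot3 spread widely within groups.

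Doxycycline in L-iAMPK mice is the comparison that switches AMPK on within 1 genotype. None of the 10 members rose and 5 fell: Acot2, Acot9, Acot13, Acot7 and Acot11 (limma on log2(FPKM + 0.5), Benjamini-Hochberg adjusted p under 0.05 over 12614 genes). In bulk liver, fewer cells of a type and less RNA per cell cannot be told apart. Decreases were common at large in this comparison. Of all genes tested 25.8% were called, 4.76% as higher and 21.1% as lower, and the median log2 change was -0.27 over the members and -0.13 over all genes. All 3 mitochondrial members were among the 5, with 2 of 4 cytosolic members and 0 of 3 peroxisomal ones. The scaling of the libraries matters to this balance. After median-ratio scaling the median over all genes moved to 0.02 and the share of higher genes among those called went from 18.4% to 55.2%, so small decreases such as those of Acot7 and Acot13 are relative to the scaling. How many of all genes had groups without overlap was not counted, so a lack of overlap, given below for single members, describes their values only.

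Acot2, the long-chain acyl-CoA thioesterase of the mitochondrial matrix, was at 12.3, 10.2 and 8.81 FPKM in the L-iAMPK HFD livers and at 5.62, 4.53 and 3.92 FPKM in the L-iAMPK HFD+doxy livers. Every treated liver lay below every untreated one. The means were 10.4 ± 1.77 and 4.69 ± 0.86 FPKM (SD, n = 3), and the log2 fold change was -1.07 ± 0.23 (SE, limma adjusted p = 0.0093). This call held in all 22 alternative analyses and single-library omissions, with log2 fold changes from -1.20 to -0.91. Many of the 22 could alter the adjusted p but not the estimate, which stayed at -1.07. These were the omissions of an iAMPK liver, the changes of filter, the block, no trend or robust step, and only the libraries compared. Acot2 stood at 2.80, 3.81 and 4.55 FPKM in iAMPK HFD and at 2.72, 5.60 and 4.19 FPKM in iAMPK HFD+doxy, levels that overlap those of the L-iAMPK HFD+doxy livers. L-iAMPK HFD was the group that stood apart, above the other 9 livers without overlap.

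Acot9, a mitochondrial enzyme that accepts long-chain and branched short-chain acyl-CoA, was at 4.01, 3.19 and 3.15 FPKM in L-iAMPK HFD and at 1.43, 1.68 and 1.38 FPKM in L-iAMPK HFD+doxy. The groups did not overlap, and Acot9 fell by 0.98 ± 0.27 on the log2 scale (SE, limma adjusted p = 0.0231). Over the 22 alternatives the adjusted p ran from 0.00213 to 0.0811, and it passed the threshold in 18. The call ended without replicate 1 or 2 of L-iAMPK HFD (adjusted p = 0.0811 and 0.0556 by limma) and without replicate 1 or 3 of L-iAMPK HFD+doxy (adjusted p = 0.0639 and 0.0670 by limma). In iAMPK HFD it was at 1.32, 2.34 and 1.93 FPKM, and in iAMPK HFD+doxy at 1.38, 3.25 and 3.77 FPKM, which overlapped both L-iAMPK groups. Acot10, the near-identical copy of Acot9 without introns, was under 1.25 FPKM in every liver and had a log2 fold change of -0.64 ± 0.18 in the same comparison (limma adjusted p = 0.0254). Reads common to the pair could move both values.

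Acot13 was at 84.2, 89.1 and 79.9 FPKM in L-iAMPK HFD and at 72.4, 69.5 and 75.3 FPKM in L-iAMPK HFD+doxy. The groups did not overlap, but the difference was small, a log2 fold change of -0.22 ± 0.07 (SE, limma adjusted p = 0.0303). It was lost under median-ratio scaling (-0.04, adjusted p = 0.675), under quantile normalization (adjusted p = 0.217), in edgeR on recovered reads (-0.06, adjusted p = 0.565) and in 6 more of the 22 alternatives, over which the adjusted p ran from 0.0185 to 0.675. Among those 6, the estimate stayed at -0.22 with the replicate number as a block (adjusted p = 0.0523 by limma) and with only the libraries compared (adjusted p = 0.0760 by limma), and it was -0.18 to -0.22 in 4 omissions of a single library: replicates 1 and 2 of L-iAMPK HFD and replicates 1 and 2 of L-iAMPK HFD+doxy.

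Among the cytosolic members, Acot11, which pairs its thioesterase domains with a START lipid-binding domain, was at 6.32, 8.29 and 9.31 FPKM in L-iAMPK HFD and at 5.08, 4.86 and 5.24 FPKM in L-iAMPK HFD+doxy. The groups did not overlap, and the log2 fold change was -0.59 ± 0.13 (SE, limma adjusted p = 0.01005), a call that held in all 22 alternatives. In iAMPK HFD it was at 6.72, 4.96 and 5.64 FPKM and in iAMPK HFD+doxy at 4.29, 4.92 and 4.30 FPKM, so that the L-iAMPK HFD+doxy livers lay within the range of the iAMPK livers. With doxycycline in iAMPK, where AMPK is given as inactive, Acot11 had a log2 fold change of -0.32 ± 0.13 (SE, limma adjusted p = 0.799). The effect in L-iAMPK minus that in iAMPK was -0.27 ± 0.19 (SE) and was not called (limma adjusted p = 0.345).

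Acot7, which prefers arachidonoyl-CoA and is best known from brain, was lowest in the livers with active AMPK. It was at 11.5, 11.2 and 12.5 FPKM in L-iAMPK HFD and at 9.61, 8.64 and 9.74 FPKM in L-iAMPK HFD+doxy. The 6 iAMPK livers lay between 11.3 and 13.0 FPKM, so every liver with active AMPK was below each of the 9 controls. The log2 fold change with doxycycline in L-iAMPK was -0.32 ± 0.08 (SE, limma adjusted p = 0.0150), and the call was lost under median-ratio scaling (-0.15, adjusted p = 0.167), under quantile normalization (adjusted p = 0.0882), in edgeR (-0.17, adjusted p = 0.216) and without replicate 2 of L-iAMPK HFD+doxy (adjusted p = 0.0554), with a range over the 22 alternatives of 0.0106 to 0.216. The FPKM table and the tag table list different Acot7 transcripts, of 1356 and 1483 bases. The length implied by tags and FPKM, 1407 bases, matches neither. Whether the tag-based values of edgeR and the authors' deposited table are of the same Acot7 transcript is therefore not known.

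Acot12 hardly varied. Its group means were 55.2 ± 2.67, 51.6 ± 3.96, 56.9 ± 4.19 and 56.5 ± 6.27 FPKM in iAMPK HFD, iAMPK HFD+doxy, L-iAMPK HFD and L-iAMPK HFD+doxy (SD, n = 3), and all groups overlapped. Doxycycline in L-iAMPK gave a log2 fold change of -0.01 ± 0.09 (SE, limma adjusted p = 0.931). Acot1, the cytosolic long-chain enzyme, was at 15.8, 13.9 and 24.1 FPKM in L-iAMPK HFD and at 40.6, 14.9 and 13.9 FPKM in L-iAMPK HFD+doxy. These groups overlapped, 1 treated liver stood far above the rest of its group, and no change was called (0.22 ± 0.38, limma adjusted p = 0.696). Without that liver the estimate turned to -0.27.

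The peroxisomal members did not pass the test with doxycycline in L-iAMPK. Acot3, which acts on medium- and long-chain acyl-CoA, was at 22.0, 19.2 and 48.6 FPKM in L-iAMPK HFD and at 47.5, 65.9 and 31.7 FPKM in L-iAMPK HFD+doxy, with overlap (0.74 ± 0.76, limma adjusted p = 0.497). Acot4, a succinyl-CoA hydrolase, was at 27.7, 29.3 and 35.2 FPKM without and at 30.7, 36.1 and 21.9 FPKM with doxycycline (-0.08 ± 0.31, limma adjusted p = 0.870). Acot8, which hydrolyses a broad range of acyl-CoA including bile acid CoA esters, was at 15.0, 12.6 and 17.7 FPKM without and at 13.7, 10.6 and 10.1 FPKM with doxycycline. Its groups overlapped, and its log2 fold change of -0.39 ± 0.14 (SE) just missed the threshold (limma adjusted p = 0.0576). It passed in 2 of the 22 alternatives, without replicate 2 of L-iAMPK HFD (adjusted p = 0.0360 by limma) and without replicate 1 of L-iAMPK HFD+doxy (adjusted p = 0.0268 by limma).

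**Figure D2:**
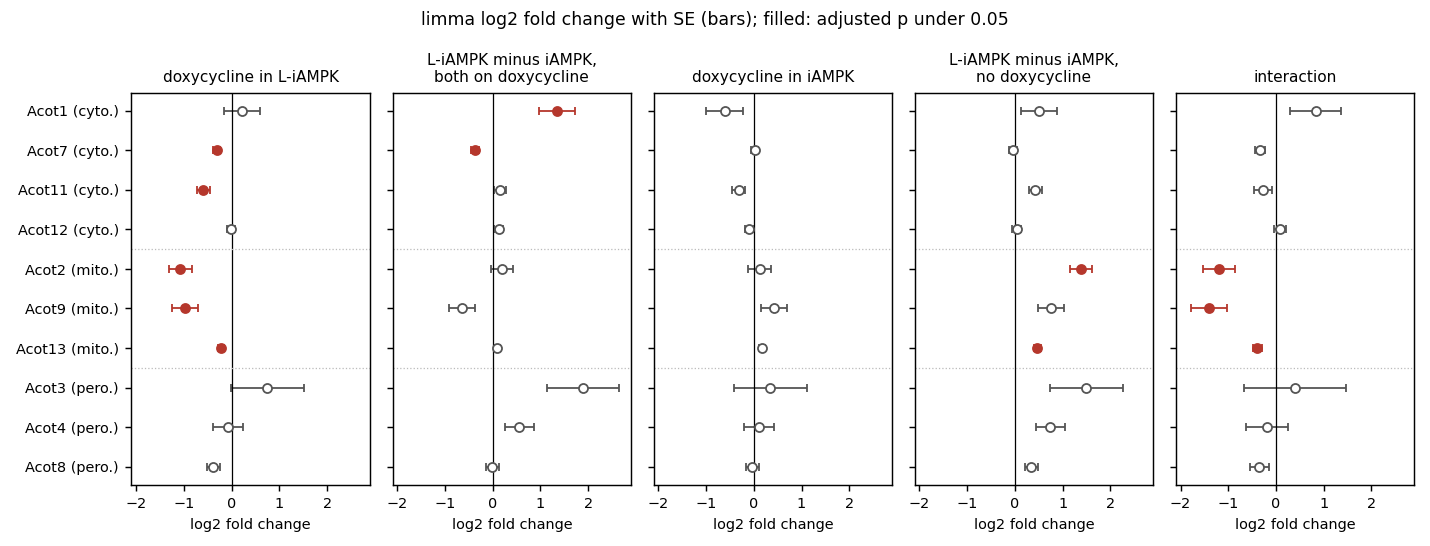
Log2 fold change of each member (horizontal axis, points, with SE as bars) in the 5 comparisons, ordered by compartment (rows: cytosol, mitochondria, peroxisome); filled red points have a limma adjusted p under 0.05 over all genes. The 3 mitochondrial members are red and below 0 for doxycycline in L-iAMPK and for the interaction, and Acot2 and Acot13 are red and above 0 for the genotypes without doxycycline.

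The second comparison with active AMPK sets L-iAMPK HFD+doxy against iAMPK HFD+doxy, where both genotypes had the drug. It shares the L-iAMPK HFD+doxy livers with the first. Acot1 was higher, Acot7 was lower and the other 8 members were not called. Of all genes 14.9% were called, 4.61% as higher and 10.3% as lower. Acot1 was at 40.6, 14.9 and 13.9 FPKM in L-iAMPK HFD+doxy and at 8.48, 9.16 and 5.92 FPKM in iAMPK HFD+doxy, so the groups did not overlap and the means differed 2.95-fold. The log2 fold change was 1.34 ± 0.38 (SE, limma adjusted p = 0.0413). This call passed in 10 of the 22 alternatives, with adjusted p from 0.0321 to 0.129, and among others it ended in edgeR (1.76, adjusted p = 0.0869) and with the replicate number as a block (adjusted p = 0.0564 by limma). Without the liver at 40.6 FPKM the log2 fold change was 0.86 in place of 1.34 (limma adjusted p = 0.0731), and without replicate 3 of iAMPK HFD+doxy it was 1.17 (limma adjusted p = 0.129).

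Acot7 was at 11.3, 12.9 and 12.6 FPKM in iAMPK HFD+doxy, above all 3 L-iAMPK HFD+doxy livers. The log2 fold change was -0.37 ± 0.08 (SE, limma adjusted p = 0.0108), and the call held in 21 of the 22 alternatives, edgeR being the exception (-0.26, adjusted p = 0.153). Acot3 had the largest estimate of the family in this comparison, 1.89 ± 0.76 (SE). It was at 10.9, 29.1 and 5.40 FPKM in iAMPK HFD+doxy, below each L-iAMPK HFD+doxy liver, yet the spread within groups left it short of the threshold (limma adjusted p = 0.121). Acot9 had a log2 fold change of -0.64 ± 0.27 (limma adjusted p = 0.130). The call appeared without replicate 1 of iAMPK HFD+doxy, the lowest Acot9 liver of its group (-1.01, adjusted p = 0.00519 by limma), against a range of 0.00519 to 0.369 over the 22 alternatives. Acot2, Acot4, Acot8, Acot11, Acot12 and Acot13 had log2 fold changes from -0.01 (Acot8) to 0.56 (Acot4).

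The authors' deposited table, which rests on tags rather than FPKM, gives the same comparisons with its own scaling. For doxycycline in L-iAMPK the authors' deposited table has log2 fold changes of -0.97 for Acot2 (adjusted p = 2.0057e-06), -1.02 for Acot9 (adjusted p = 5.2929e-05) and -0.48 for Acot11 (adjusted p = 0.0372), and there Acot13 (-0.04, adjusted p = 1.0) and Acot7 (-0.15, adjusted p = 0.770) did not pass. Against iAMPK HFD+doxy the authors' deposited table has 1.65 for Acot1 (adjusted p = 7.5123e-05) and 1.78 for Acot3 (adjusted p = 0.00201). Against iAMPK HFD, the third comparison in the authors' deposited table, Acot1 was higher by 0.97 (adjusted p = 0.0485) and Acot3 by 1.86 (adjusted p = 0.0164), while Acot4 at 0.70 (adjusted p = 0.0776) was not called. The authors' deposited table did not call Acot7 against iAMPK HFD+doxy (-0.27, adjusted p = 0.405) or against iAMPK HFD (-0.29, adjusted p = 0.341).

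The control comparisons show what varied without active AMPK. With doxycycline in iAMPK mice no member was called. The comparison called 0 of all 12614 genes (0%) in limma and 0 genes in edgeR, with 786 genes and 2 members (Acot13 and Acot11) at an unadjusted limma p under 0.05. Acot13 was at 61.1, 59.9 and 60.8 FPKM in iAMPK HFD and at 66.5, 72.5 and 66.1 FPKM in iAMPK HFD+doxy, a log2 fold change of 0.17 ± 0.07, and that of Acot11 was -0.32 ± 0.13 (both limma adjusted p = 0.799). Acot1 had the largest estimate, -0.61 ± 0.38 (limma adjusted p = 0.830). Yet the groups of this comparison did not overlap for Acot1, Acot11 or Acot13. A lack of overlap between groups of this size was thus also seen where no gene was called. The share of all genes without overlap was not counted here either.

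The genotypes without doxycycline differed more within the family. L-iAMPK HFD stood above iAMPK HFD for Acot2 and Acot13, and the other 8 members were not called. Of all genes 4.31% were called, 3.04% as higher and 1.27% as lower. The Acot2 means of 10.4 ± 1.77 and 3.72 ± 0.88 FPKM (SD, n = 3) differed 2.81-fold, a log2 fold change of 1.38 ± 0.23 (SE, limma adjusted p = 0.0155), and the call held in 19 of the 22 alternatives with log2 fold changes from 1.22 to 1.52. It ended without replicate 1 of iAMPK HFD (adjusted p = 0.0708 by limma) and without replicate 1 or 2 of L-iAMPK HFD (adjusted p = 0.0730 and 0.0754 by limma). The Acot13 means of 84.4 ± 4.58 and 60.6 ± 0.62 FPKM (SD, n = 3) differed 1.39-fold, with a log2 fold change of 0.47 ± 0.07 (SE, limma adjusted p = 0.0068), and that call held in all 22. The groups did not overlap for Acot2, Acot13, Acot9 or Acot4, and Acot9 and Acot4 did not pass (0.76 ± 0.27 with adjusted p = 0.115 and 0.74 ± 0.31 with adjusted p = 0.167 by limma). For Acot4 the gap was narrow, from 27.65 FPKM in the highest iAMPK HFD liver to 27.71 FPKM in the lowest L-iAMPK HFD liver. The share of all genes without overlap was not counted, so the lack of overlap says little about the members. Acot9 passed in 1 of the 22 alternatives, without replicate 1 of iAMPK HFD+doxy (adjusted p = 0.0219 by limma). That library is outside this comparison, and the Acot9 estimate stayed at 0.76. The largest estimate of the family here, 1.49 ± 0.76 for Acot3 (13.9 ± 15.2 and 29.95 ± 16.2 FPKM in iAMPK HFD and L-iAMPK HFD; SD, n = 3), was not called (limma adjusted p = 0.247), and it ran from 0.97 without replicate 2 of iAMPK HFD to 2.34 without replicate 3 of that group. The members' median was 0.49 on the log2 scale, against 0.08 over all genes. Both genotypes are given as having inactive AMPK here, and Prkaa1 was at 3.34 ± 0.75 FPKM in iAMPK HFD and 3.51 ± 0.34 FPKM in L-iAMPK HFD.

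The interaction asks whether doxycycline changed a gene by a different amount in L-iAMPK than in iAMPK. It was negative for the 3 mitochondrial members and was not called for the other 7. Of all genes 13.2% were called, 2.01% with a positive and 11.2% with a negative interaction. The estimate was -1.20 ± 0.33 (SE) for Acot2 (limma adjusted p = 0.0398), -1.40 ± 0.38 for Acot9 (limma adjusted p = 0.0371) and -0.39 ± 0.09 for Acot13 (limma adjusted p = 0.0239). All 3 lay near the threshold. Acot2 passed in 7 of 21 alternatives (adjusted p 0.00715 to 0.121 by limma or edgeR), Acot9 in 9 (0.00186 to 0.0887) and Acot13 in 13 (0.0127 to 0.323), and edgeR on recovered reads called none of them. The largest estimate outside this compartment, 0.83 ± 0.54 for Acot1, was not called (limma adjusted p = 0.315) and was 0.35 without replicate 1 of L-iAMPK HFD+doxy.

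Summed by compartment, the transcripts of the mitochondrial members came to 65.2, 66.1 and 67.3 FPKM in iAMPK HFD, 70.6, 81.4 and 74.0 FPKM in iAMPK HFD+doxy, 100.5, 102.5 and 91.9 FPKM in L-iAMPK HFD and 79.5, 75.7 and 80.6 FPKM in L-iAMPK HFD+doxy. The L-iAMPK HFD livers were the highest 3 of the 12, and the sum is mostly Acot13. The cytosolic sum was 85.3 ± 5.37, 76.2 ± 5.13, 94.5 ± 10.7 and 94.0 ± 21.4 FPKM in the same order of groups (SD, n = 3), with overlap between the L-iAMPK groups. The peroxisomal sum was 44.6 ± 22.0, 47.0 ± 21.0, 75.8 ± 22.4 and 89.3 ± 24.5 FPKM, with overlap among all groups. These sums were not tested.

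**Figure D3:**
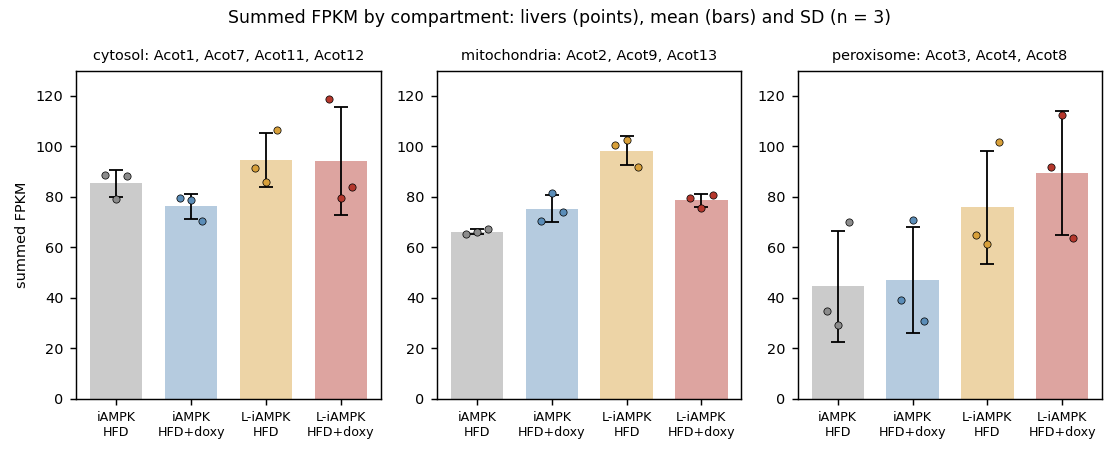
Summed FPKM (vertical axis, from 0) of the cytosolic, mitochondrial and peroxisomal members; bars are group means, error bars the SD (n = 3) and points the livers. The mitochondrial sum of 91.9 to 102.5 FPKM in L-iAMPK HFD lies above the other 9 livers, and the peroxisomal sums spread so far that all groups overlap.

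The type I neighbours did not keep a fixed proportion to each other. A ratio of genes within a liver does not depend on how the library was scaled; these ratios were chosen after the values were seen and carry no test. Acot3 over Acot4 was 1.55, 1.83 and 1.45 in L-iAMPK HFD+doxy, and between 0.313 and 1.38 in the 9 controls. Acot3 over Acot2 was 8.45, 14.5 and 8.07 in L-iAMPK HFD+doxy, and between 1.12 and 6.91 in the controls. For both ratios the 3 livers with active AMPK were the highest of the 12. Acot1 over Acot2 was 7.22, 3.28 and 3.55 in L-iAMPK HFD+doxy and 1.28, 1.36 and 2.73 in L-iAMPK HFD, without overlap, but it reached 4.26 in iAMPK HFD. This last ratio is the one touched most by the exon 3 stretch that Acot1 and Acot2 share.

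**Figure D4:**
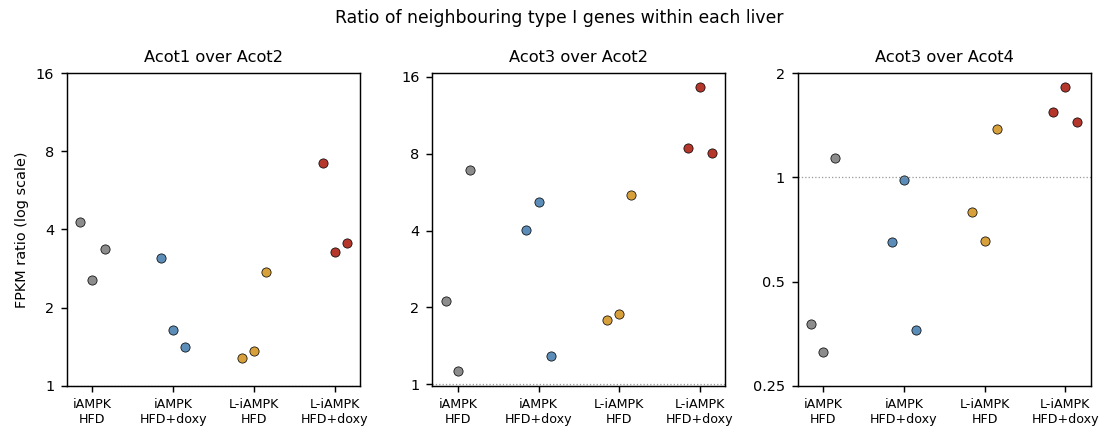
Ratio of FPKM between neighbouring type I genes in each liver (vertical axis, log scale; dotted line at equal levels), by group. The L-iAMPK HFD+doxy livers are the highest 3 for Acot3 over Acot2 (8.07 to 14.5) and Acot3 over Acot4 (1.45 to 1.83).

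Within groups, Acot3 and Acot4 were high in the same livers. In iAMPK HFD both peaked in replicate 3 (31.4 and 27.6 FPKM, against at most 5.90 and 15.7 FPKM in the other livers). In iAMPK HFD+doxy both peaked in replicate 2 (29.1 and 29.5 FPKM, against at most 10.9 and 16.9 FPKM), and in L-iAMPK HFD+doxy again in replicate 2 (65.9 and 36.1 FPKM). In L-iAMPK HFD both peaked in replicate 3 (48.6 and 35.2 FPKM). Acot1 peaked in the same livers in iAMPK HFD (15.2 FPKM), iAMPK HFD+doxy (9.16 FPKM) and L-iAMPK HFD (24.1 FPKM), but not in L-iAMPK HFD+doxy. Acot3 and Acot4 also share sequence: 121 of the 1217 coding windows of 50 bases in Acot4 occurred in Acot3.

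Other genes that make, bind or use acyl-CoA were examined as 5 lists. Of 15 acyl-CoA synthetase genes tested, which run the opposite reaction, 4 fell with doxycycline in L-iAMPK, 0 rose and 11 did not pass (median log2 change -0.27). Acsf2, a medium-chain synthetase of mitochondria, changed most, from 39.6 ± 5.23 to 1.73 ± 0.34 FPKM (SD, n = 3), a log2 fold change of -4.17 ± 0.13 (SE, limma adjusted p = 9.70759e-09). The others were Acsf3, Slc27a1 and Acsl4, with log2 fold changes of -0.64, -0.99 and -0.80. Of 16 genes of acyl-CoA binding and carnitine transfer, 8 fell and 0 rose (median -0.33), among them Pctp, the partner of Acot13 (-0.61), Cpt1a, which forms acylcarnitines at the mitochondrial outer membrane (-0.74), and Acbd6 (-0.35).

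Of 15 other thioesterase genes tested 6 fell and 0 rose (median -0.14), led by Ppt1, the lysosomal enzyme that removes palmitate from proteins (-0.73), Them7 (-0.996), Hibch of valine breakdown (-0.46) and Them6 (-0.80). Acot10, whose reads may be shared with Acot9, was 1 of the 6. Of 16 genes of CoA synthesis, transport and breakdown 5 fell and 2 rose (median -0.18). Slc5a6, a transporter of the CoA precursor pantothenate, had a log2 fold change of -0.98, Vnn1, which recycles pantothenate, -0.49, Ppcs -0.27, and Nudt8, a mitochondrial CoA hydrolase, rose by 0.31. Of 28 known PPAR-alpha target genes tested 17 fell and 0 rose (median -0.45), among them Acadl, a long-chain acyl-CoA dehydrogenase of mitochondria (-0.62), and Decr1 and Eci1, which serve the oxidation of unsaturated fatty acids (-0.52 and -0.56). These counts stand beside the 21.1% of all genes that fell in this comparison. For the genotypes on doxycycline 1 of the 28 PPAR-alpha targets was higher and 6 were lower in L-iAMPK (4.61% and 10.3% of all genes), and without doxycycline 6 were higher and 0 lower (3.04% and 1.27% of all genes). In the interaction 8 of the 28 PPAR-alpha targets, 5 of the 16 binding and carnitine genes, 4 of the 15 synthetases, 2 of the 15 other thioesterases and 0 of the 16 CoA genes were called, all negative, beside 11.2% of all genes.

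For each member the 2 genes most like it over the 12 livers were found by Pearson r of log2(FPKM + 0.5) among 10324 genes outside the family, as a description only. Acot3 and Acot4 were closer to each other (r = 0.939) than to any of these. Outside the family both had Ccny as the closest gene (r = 0.924 and 0.932), followed by Cnst (0.909) and Sbk1 (0.923). The closest were St3gal5 and Slc25a16 for Acot1 (0.921 and 0.908), Ifih1 and Nub1 for Acot7 (0.971 and 0.970), Fam151a and Pcp4l1 for Acot11 (0.979 and 0.959), and Pdp2 and Aptx for Acot12 (0.886 and 0.875). They were Rnpepl1 and Arsb for Acot2 (0.960 and 0.959), Ppic and Arhgef7 for Acot9 (0.977 and 0.974), N6amt1 and Rnf145 for Acot13 (0.915 and 0.913), and Clns1a and Prdx2 for Acot8 (0.884 and 0.879). The points are the same 12 livers in 4 groups, so genes that differ between groups alike score high.

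Markers of the cell types of liver were measured in the same libraries. Hepatocyte markers summed to 44899 to 50432 FPKM in L-iAMPK HFD and 38919 to 48515 FPKM in L-iAMPK HFD+doxy. Of the 9 markers 3 were called higher and 0 lower with doxycycline in L-iAMPK, while the mean sum was lower with doxycycline, 42498 against 47785 FPKM. In the same comparison 7 of 10 stellate cell markers fell (sums of 139 to 196 FPKM in L-iAMPK HFD and 94.4 to 119 FPKM in L-iAMPK HFD+doxy), with 5 of 8 endothelial markers (104 to 121 and 83.8 to 103 FPKM) and 1 of 5 cholangiocyte markers (38.0 to 154 and 17.6 to 22.5 FPKM). Beside these counts, 4.76% of all genes were called higher and 21.1% lower. None of the 10 macrophage markers was called (131 to 155 and 85.4 to 148 FPKM), and only 1 of 7 lymphocyte and 1 of 6 adipocyte markers was high enough to be tested, with Lep at 0 in every liver. The part of these markers in the decreases of Acot2, Acot7, Acot9, Acot11 and Acot13 was not tested. Between the genotypes without doxycycline, where Acot2 and Acot13 were higher, 1 endothelial marker was called higher and 1 adipocyte marker lower (summed adipocyte markers of 0.759 to 7.09 FPKM in iAMPK HFD and 0.105 to 0.182 FPKM in L-iAMPK HFD), and none of the hepatocyte, macrophage, stellate, cholangiocyte or lymphocyte markers was called. The summed macrophage markers did not overlap there (75.1 to 116 FPKM in iAMPK HFD and 131 to 155 FPKM in L-iAMPK HFD). Without doxycycline 3.04% of all genes were called higher and 1.27% lower in L-iAMPK. Between the genotypes on doxycycline, where Acot1 was higher and Acot7 lower, 3 of 10 stellate cell markers (108 to 183 FPKM in iAMPK HFD+doxy and 94.4 to 119 FPKM in L-iAMPK HFD+doxy) and 1 hepatocyte, 1 lymphocyte and 1 adipocyte marker were called lower and none higher. On doxycycline 4.61% of all genes were called higher and 10.3% lower in L-iAMPK. The part of these markers in the genotype differences was not tested.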

How the data were processed

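Livers were flash frozen, their RNA purified (Zymo Quick-RNA MiniPrep) and TruSeq stranded-mRNA libraries made, per the labels' protocols. The submitters' processing notes list FastQC, STAR 2.4.0k, HOMER, edgeR 3.6.8 and build mm10, with no role or order. The authors deposited FPKM per gene with 0.5 added to each value, which was subtracted, and a signal of scaled tags per gene, with library totals of 16256007 to 24746275 per the file headers. The same deposited table holds the authors' log2 fold changes and adjusted p-values. The sources used here do not say whether reads were counted by strand. The tag table lists Acot1 and Acot3 with transcripts on other chromosomes, but the lengths implied by tags and FPKM (1553 and 2587 bases) match their own transcripts.

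The 12614 genes that reached 0.5 FPKM in 3 or more of 12 libraries were fitted as log2(FPKM + 0.5) with limma 3.58.1 in R 4.3.3 (4 group means, intensity trend, robust step, Benjamini-Hochberg adjustment, threshold 0.05), which was tested on simulated data. Fold changes on this scale understate the change of low genes. In the scaled tags 100% of values lay within 0.02 of a whole read, in 11 libraries of 13569437 to 20696899 reads; in iAMPK HFD+doxy replicate 2 whole reads could not be told from whole tags. edgeR 4.0.16 (quasi-likelihood) on these reads called 2992 of 13773 genes for doxycycline in L-iAMPK. No 2 libraries of a group were alike within sampling noise (chi-square over degrees of freedom at least 7.53). Except with only the libraries compared, limma shared an estimate of the spread of each gene over the 4 groups. Leaving out a library outside a comparison therefore moved the p-values of that comparison but not its estimates. Each group mean rests on 3 livers. The alternatives were 2 scalings, 2 pseudocounts (0.1 and 1), no filter or one at 2 FPKM, a replicate block, no trend or robust step, only the libraries compared, edgeR, and leaving out each library. All members are reported, with up to 4 genes per related list (smallest p for doxycycline in L-iAMPK) and 2 most alike genes per member (mean FPKM of at least 1; no symbols of predicted genes); a few genes that the rule names are not reported here. The members and lists were chosen with earlier results of these data known. Coding sequences were the longest open reading frames of GENCODE transcripts.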

Additional observations from a re-analysis of the deposited data

Results flagged for a closer look

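The effect of doxycycline differed between the genotypes, by the limma interaction test over all genes, for the 3 mitochondrial members. The effect in L-iAMPK minus that in iAMPK was -1.20 for Acot2, -1.40 for Acot9 and -0.39 for Acot13 on the log2 scale. Of all genes 13.2% were called in this test, 11.2% with a negative interaction. The calls passed in 7 (Acot2), 9 (Acot9) and 13 (Acot13) of 21 alternatives, and edgeR called none of the 3. The difference between the genotypes without doxycycline was 1.38 for Acot2, 0.47 for Acot13 and, not called, 0.76 for Acot9, and on doxycycline the same genotype difference was 0.19 for Acot2, 0.08 for Acot13 and -0.64 for Acot9, none of them called.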

How the results depend on the processing

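Over the members and the 5 comparisons, 1018 alternative values kept their direction and side of the threshold, or stayed uncalled, 67 lost a call and 5 gained one, and no called value changed sign. Only members called in the main analysis could lose a call, and all 67 losses come from them. The called members were 5 with doxycycline in L-iAMPK, 2 for the genotypes on doxycycline, 2 for those without it and 3 for the interaction. With doxycycline in L-iAMPK 3 members were called after median-ratio scaling, 3 after quantile normalization and 3 in edgeR, against 5. On doxycycline the genotypes differed in 1 member without the filter, in 1 with only the libraries compared and in 0 in edgeR, against 2, and edgeR called 1083 genes against 1882. Without doxycycline 300 genes were called from only the libraries compared and 358 in edgeR, against 544. For the interaction 1 member was called after median-ratio scaling, 0 after quantile normalization, 1 without the filter and 0 in edgeR, against 3, and edgeR called 736 genes against 1663. After median-ratio scaling 850 genes were called with a positive and 671 with a negative interaction, against 254 and 1409. The same counts were 747 and 625 after quantile normalization and 223 and 1169 without the filter. The edgeR fit also lacked iAMPK HFD+doxy replicate 2. Without that library limma called 908 genes for the genotypes on doxycycline, 289 for those without it and 527 for the interaction. The tool and the library therefore cannot be told apart in these 3 comparisons. The cause of the other changes was not tested.

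Leaving out 1 library at a time gave 1874 to 3738 genes and 3 to 5 members with doxycycline in L-iAMPK, 908 to 2442 genes and 1 to 2 members for the genotypes on doxycycline, 0 to 1 genes and 0 members with doxycycline in iAMPK, 38 to 1444 genes and 1 to 3 members for the genotypes without doxycycline, and 527 to 2803 genes and 0 to 4 members for the interaction.

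Same-numbered livers had r from -0.28 to 0.45 over 18 pairs, above 0.1 in 8, so a pairing by number was not shown. With the replicate block 1 member was called for the genotypes on doxycycline against 2, 4 with doxycycline in L-iAMPK against 5 (Acot13 was lost) and 2 for the interaction against 3 (Acot2 was lost).

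Scaling set the balance of directions. Median-ratio scaling moved the share of higher genes among those called from 30.9% to 56.5% for the genotypes on doxycycline, from 70.6% to 38.2% without doxycycline and from 15.3% to 55.9% for the interaction. Acot2 and Acot11 with doxycycline in L-iAMPK and Acot13 between the genotypes without it kept their calls in all 22 alternatives. The interaction of Acot11 was called in 0 of its 21 alternatives. The 3 livers per group limit all values, and sequence shared with other genes limits Acot1 to Acot4 and Acot9.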
